A study of Mus musculus with 59 samples.

Results

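Tsc22d3, Ddit4, Errfi1 and Pdk4 were followed over the day in the medial prefrontal cortex of the mouse. The genes were chosen by name, as transcripts that glucocorticoid hormones induce in many tissues, and they are 4 of the 4484 genes in the deposited table. All 4 passed the filter on low values, which left 4273 genes for testing. RNA was sequenced from homogenate tissue of wild-type C57BL/6J mice, adult males and females, which were killed every 4 h over 24 h. The 59 libraries formed 12 groups, males and females at each of 6 zeitgeber times (ZT, hours after lights on) from ZT2 to ZT22, with 5 libraries each and 4 in ZT10 females. No treatment, transgene or hormone measurement is given in the labels, nor is the light schedule, so ZT12 to ZT24 is called the dark phase here by convention. The labels also do not say that every library is a separate mouse, and p-values therefore measure the spread between these libraries.

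Corticosterone, the main glucocorticoid of mice, is released by the adrenal gland in a daily rhythm that crests around the start of the active phase, and also after stress. It crosses the cell membrane and binds the glucocorticoid receptor, the product of Nr3c1, which leaves its chaperones, enters the nucleus and binds glucocorticoid response elements near its target genes. Tsc22d3 encodes GILZ, a leucine zipper protein that restrains inflammatory transcription factors. Ddit4 encodes REDD1, which lowers mTORC1 activity through the TSC1-TSC2 complex and also responds to hypoxia and energy stress. Errfi1 encodes MIG6, which binds and inhibits the kinase domain of the epidermal growth factor receptor and related ErbB receptors. Pdk4 encodes a mitochondrial kinase that inactivates pyruvate dehydrogenase and so spares glucose when fatty acids are burned, and it also responds to fasting.

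A sequence just before an annotated transcription start of each gene is shown because a receptor or another factor could bind there. The windows are 250 bases long, end at the base before an annotated start, are read 5′ to 3′ on the gene's strand, and come from RefSeq on GRCm38.p6, in which all 4 genes were matched. Tsc22d3 has 3 windows in that table and Errfi1 2, and for these genes the window is shown that holds a match to the glucocorticoid response element arm or the full cAMP response element, a choice made after the matches were seen. The Tsc22d3 window shown belongs to the most upstream of its 3 starts. Its other windows, chrX:140542669-140542918 and chrX:140548572-140548821, lie far downstream inside the gene. Reads were counted per gene and do not tell which start was used. The Errfi1 window shown lies inside the span of the gene, before a start downstream of its first. The gene spans given below come from GENCODE M21, and the windows of Tsc22d3, Ddit4 and Pdk4 reach partly into those spans. Capitals mark matches to the motifs listed after the sequences. The coordinates are chrX:140600523-140600772 on the minus strand for Tsc22d3, chr10:59951771-59952020 on the minus strand for Ddit4, chr4:150854820-150855069 on the plus strand for Errfi1 and chr6:5496279-5496528 on the minus strand for Pdk4.
Tsc22d3: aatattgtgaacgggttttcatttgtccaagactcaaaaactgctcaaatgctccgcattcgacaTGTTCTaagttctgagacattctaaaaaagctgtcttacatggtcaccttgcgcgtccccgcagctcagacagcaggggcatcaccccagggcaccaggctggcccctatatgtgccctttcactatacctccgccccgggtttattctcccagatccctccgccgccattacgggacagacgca
Ddit4: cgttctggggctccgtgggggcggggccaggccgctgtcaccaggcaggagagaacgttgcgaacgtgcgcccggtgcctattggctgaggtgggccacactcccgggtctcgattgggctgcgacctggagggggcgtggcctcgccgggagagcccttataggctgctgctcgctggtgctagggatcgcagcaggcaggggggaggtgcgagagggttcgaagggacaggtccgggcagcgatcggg
Errfi1: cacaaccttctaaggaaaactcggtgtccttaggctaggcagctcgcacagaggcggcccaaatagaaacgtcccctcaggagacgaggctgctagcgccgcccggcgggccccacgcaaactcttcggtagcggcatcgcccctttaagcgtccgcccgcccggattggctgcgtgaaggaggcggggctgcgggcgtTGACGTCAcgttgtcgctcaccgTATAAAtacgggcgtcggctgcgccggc
Pdk4: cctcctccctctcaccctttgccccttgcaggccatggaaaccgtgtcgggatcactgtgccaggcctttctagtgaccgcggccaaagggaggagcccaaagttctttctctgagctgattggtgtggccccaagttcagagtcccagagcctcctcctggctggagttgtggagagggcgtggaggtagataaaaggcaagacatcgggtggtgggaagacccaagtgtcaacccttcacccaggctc
The motifs were searched on both strands. The Tsc22d3 window holds TGTTCT, the reverse complement of AGAACA, which is 1 arm of the glucocorticoid response element, beginning 185 bases before the start. Such a hexamer occurs in 16.1% of 32851 mouse windows of this length. Of the other two Tsc22d3 windows, 1 holds no match and 1 holds TGACG, beginning 224 bases before its start. The other Errfi1 window holds none. The full palindromic element, 2 such arms in opposite directions with 3 bases between, occurs in 0.00913% of them and in none of the windows of the 4 genes. The Errfi1 window holds TGACGTCA, the cAMP response element, beginning 51 bases before the start (1.55% of all windows), and TATAAA, the TATA box, beginning 28 bases before it (12.4%). TGACG or its complement CGTCA, a shorter form of the cAMP response element that overlaps it in Errfi1, is in 17.8% of windows. The E-box CACGTG (6.02%), AGGTCA, the core of the element bound by REV-ERB and ROR (14%), and the FoxO core TGTTTAC (3.17%) matched none of the windows of the 4 genes. The Ddit4 and Pdk4 windows hold no match to any of these letters. Of the 250 bases of the Ddit4 window 70% are G or C, against a median of 52.4% over all windows. These matches describe letters in short windows and show neither binding nor its absence.

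Per library, 6317420 to 13325019 reads were recovered from the table (median 9015221). Between 61.4% and 91.2% of them (median 77.9%) fell on the 6 noncoding genes with most reads. That share averaged between 75.5% and 78.5% at the 6 times. The titles number the libraries serially, and those from 49 to 60 differed from the 4 earlier runs of 12 numbers on the first principal component, so results are also given by run and without that run. Of the marker genes listed for the tissue, 9 for GABAergic neurons, 4 for astrocytes, 2 for microglia, 1 for oligodendrocyte precursors and 1 for leptomeningeal cells were tested. None of them was called rhythmic, where 1.90% of all genes tested were. No gene of the endothelial, choroid plexus or blood lists was among the tested genes. In homogenate tissue, fewer cells of a type and less RNA per cell cannot be told apart.

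Levels of different genes are compared per length. Per kilobase of exon, the mean level was 279 ± 90.3 scaled reads for Tsc22d3 (SD, n = 59), 173 ± 57.5 for Ddit4, 161 ± 25.4 for Errfi1 and 88.8 ± 23.1 for Pdk4. The recovered reads per library ran from 150 to 774 for Tsc22d3 (median 345), from 34 to 200 for Ddit4 (median 91), from 79 to 324 for Errfi1 (median 192) and from 44 to 156 for Pdk4 (median 98). Counting error alone at those medians gives an SD of about 0.078, 0.15, 0.10 and 0.15 on the log2 scale in the same order. The observed SD over all 59 libraries was 0.47, 0.49, 0.23 and 0.44. All further levels are log2 values of the scaled read count plus 1.

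Tsc22d3 (ENSMUSG00000031431, GRCm38 chromosome X, 140539528 to 140600659, minus strand, 6 annotated transcripts) was low in the first hours of the light phase and highest after dusk. At ZT2 its log2 level ran from 9.16 to 10.24 (median 9.81), and at ZT6 from 9.11 to 10.49 (median 9.76). At ZT10 it ran from 9.46 to 10.66 around a median of 10.12. At ZT14 it ran from 10.02 to 11.14 around 10.60, and 6 of the 10 libraries lay above every ZT6 library. At ZT18 the range was 10.06 to 10.98 (median 10.42), and at ZT22 it was 9.68 to 10.58 (median 10.20). In the order of the means, ZT6, ZT2, ZT10, ZT22, ZT18 and ZT14, the step from ZT22 to ZT18 was the single one larger than the smaller of the SDs of its times. The mean rose from 9.78 ± 0.43 to 10.65 ± 0.37 (SD, n = 10 each) from ZT6 to ZT14, a 1.83-fold difference.

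Ddit4 (ENSMUSG00000020108, chromosome 10, 59949669 to 59951834, minus strand, 1 transcript) followed the same order of times at its extremes, from a lower level. Its log2 level ran from 7.54 to 8.80 at ZT2 (median 7.79), from 6.69 to 8.60 at ZT6 (median 7.79) and from 7.54 to 8.85 at ZT10 (median 8.24). In the dark phase it ran from 8.0 to 9.18 at ZT14 (median 8.39), from 7.74 to 8.91 at ZT18 (median 8.35) and from 7.87 to 8.60 at ZT22 (median 8.26). The ZT6 and ZT14 libraries overlapped more than for Tsc22d3, and 4 of 10 at ZT14 exceeded all of those at ZT6. The lowest value was that of ZT6 male replicate 3, which was also the lowest library for Tsc22d3. The means were 7.72 ± 0.56 at ZT6 and 8.52 ± 0.45 at ZT14 (SD, n = 10 each), a 1.74-fold difference.

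Errfi1 (ENSMUSG00000028967, chromosome 4, 150853919 to 150868892, plus strand, 3 transcripts) had the narrowest range of the 4. Its log2 means were 9.08, 8.99 and 9.14 at ZT2, ZT6 and ZT10 and 9.18, 9.31 and 9.22 at ZT14, ZT18 and ZT22. The libraries ran from 8.65 to 9.32 at ZT6 and from 8.95 to 9.61 at ZT18, so the extreme times overlapped, and no neighbouring pair in the order of the means differed by more than the smaller of their SDs. The difference between the ZT6 and ZT18 means was 1.24-fold.

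Pdk4 (ENSMUSG00000019577, chromosome 6, 5483351 to 5496309, minus strand, 3 transcripts) had its highest mean at ZT2 and its lowest at ZT14, where Tsc22d3 and Ddit4 had their highest. By the median, ZT6 (8.05) was slightly below ZT14 (8.08). From ZT2 to ZT22 its log2 means were 8.52, 8.07, 8.36, 7.88, 8.12 and 8.45, with a smaller high at ZT10 beside the one around dawn. At ZT2 the libraries ran from 8.10 to 9.04 with a median of 8.58. At ZT14 the range was 6.32 to 8.56 around a median of 8.08, and the 5 ZT14 females held the values 8.31, 8.05, 8.44, 6.32 and 7.09. The 2 low values rested on 44 and 89 recovered reads, and the libraries they came from had noncoding shares of 65.6% and 61.4%, at the low end of the series. The ZT2 and ZT14 means differed 1.56-fold.

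**Figure D1:**
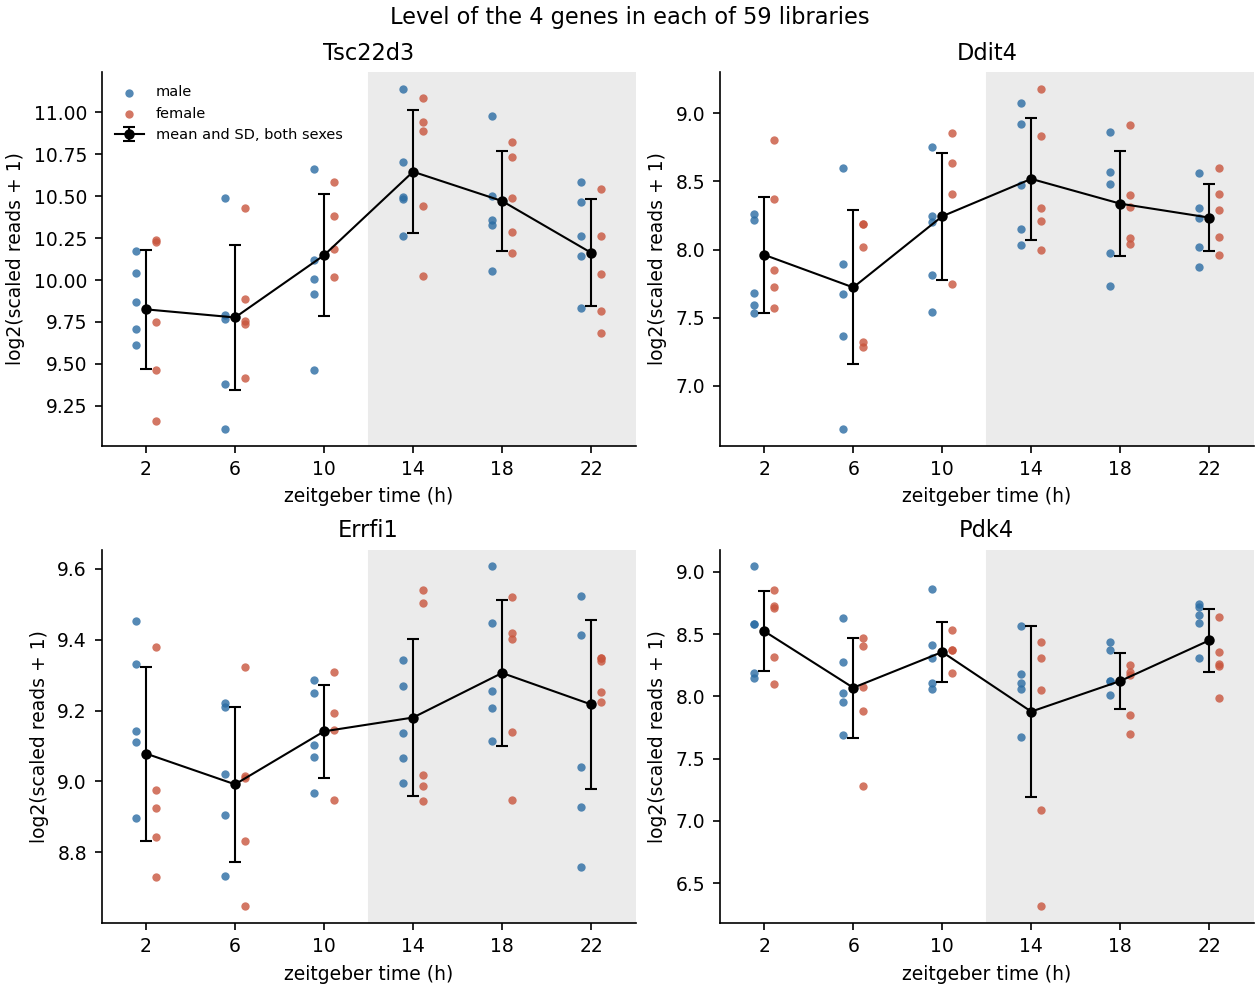
Log2 level of Tsc22d3, Ddit4, Errfi1 and Pdk4 (vertical axes, log2 of scaled reads plus 1) against zeitgeber time in hours, with ZT12 to ZT24 shaded. Points are libraries, blue for males and red for females, and black points and bars are the mean and SD over both sexes at each time (n = 10, or 9 at ZT10). Tsc22d3 and Ddit4 have their highest means at ZT14 and their lowest at ZT6, Errfi1 varies least, and Pdk4 has 2 low female libraries at ZT14.

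The question of a daily rhythm was put to each gene with a 24 h cosine and sine term over all libraries. Tsc22d3 had an amplitude, from the mean to the peak, of 0.44 ± 0.06 on the log2 scale (SE, n = 59) and a peak at ZT15.8 ± 0.56 h (adjusted p = 1.08e-05, limma with Benjamini-Hochberg adjustment). Ddit4 had 0.34 ± 0.08 and a peak at ZT16.1 ± 0.89 h, with an adjusted p of 0.0181. Both were called, 2 of the 4 genes, where 1.90% of all genes tested were called and 1.40% were called with a peak in the dark phase. The 4 genes were chosen with earlier results of these data known, so these shares describe them and are not a test of the set. Errfi1 had an amplitude of 0.14 ± 0.04 with a fitted peak at ZT17.8 ± 1.15 h (adjusted p = 0.139), and Pdk4 had 0.23 ± 0.07 with a fitted peak at ZT1.12 ± 1.21 h (adjusted p = 0.184). Over the 12 group means, the r of Tsc22d3 and Ddit4 was 0.18 and 0.30 with the noncoding share, 0.03 and -0.25 with the summed GABAergic markers, -0.19 and 0.05 with the summed astrocyte markers and -0.43 and -0.28 with the summed microglia markers; the part of these in the result was not tested. By p, the 4 genes ranked 8, 59, 170 and 222 among the 4273, and the median amplitude of all genes was 0.076. The call of Tsc22d3 held without any 1 of the 59 libraries and without any 1 run. That of Ddit4 also held without any 1 library (adjusted p from 0.00717 to 0.0366), but it ended without the run 1 to 12 (0.0527), 13 to 24 (0.144) or 25 to 36 (0.379), and without the last of these the amplitude of Ddit4 was 0.22 and that of Errfi1 0.08.

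Between ZT6 and ZT14, Tsc22d3 rose by 0.87 ± 0.16 on the log2 scale (SE, limma, adjusted p = 0.00066) and Ddit4 by 0.80 ± 0.19 (adjusted p = 0.0262), where 0.421% of all genes were called in this comparison. These 2 times held the lowest and highest means of both genes, and the p-values make no allowance for a pair picked from 6 times. The limma test of any difference among the times, which picks no pair, did not call Ddit4 (adjusted p = 0.0883). For Errfi1 the difference was 0.19 ± 0.10 (adjusted p = 0.746) and for Pdk4 it was -0.19 ± 0.17 (adjusted p = 0.837). The Ddit4 call ended without any 1 of 8 libraries, namely replicates 3 and 5 of ZT6 males, 2 and 3 of ZT6 females, 3 and 4 of ZT14 males or 2 and 3 of ZT14 females, with an adjusted p of 0.0978 at most, without ZT6 male replicate 3. With library totals as the scale, the median of all genes moved to -0.19 for ZT14 minus ZT6, Tsc22d3 stood at 0.67 and Ddit4 at 0.60 without a call, and Errfi1 changed sign to -0.01; relative to that median the values of Tsc22d3, Ddit4, Errfi1 and Pdk4 were 0.87, 0.80, 0.19 and -0.18.

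No gene of the 4 was called in any of the 6 steps from a time to the next. Of all genes 0.140% were called from ZT2 to ZT6, 0.0234% from ZT6 to ZT10, 0.0702% from ZT10 to ZT14, 0.0702% from ZT14 to ZT18, and 0% in the steps from ZT18 to ZT22 and from ZT22 to ZT2 (193 and 161 genes at an unadjusted p under 0.05, limma). The climb of Tsc22d3 was spread over 2 steps, 0.37 ± 0.16 from ZT6 to ZT10 and 0.50 ± 0.16 from ZT10 to ZT14 (SE, unadjusted p = 0.0243 and 0.00318, limma). For Ddit4 the larger part came first, 0.53 ± 0.19 from ZT6 to ZT10 and 0.27 ± 0.19 from ZT10 to ZT14 (unadjusted p = 0.00873 and 0.174). Pdk4 differed by -0.45 ± 0.17 from ZT2 to ZT6 and by -0.47 ± 0.17 from ZT10 to ZT14 (unadjusted p = 0.00981 and 0.00954), and the second of these was -0.30 without ZT14 female replicate 4. The adjusted p of all of these steps lay between 0.530 and 0.930 (limma, Benjamini-Hochberg).

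Averaged over its times, the dark phase stood above the light phase for Tsc22d3, by 0.51 ± 0.09 on the log2 scale (SE, limma, adjusted p = 0.00038), in a comparison that called 0.749% of all genes. Single times of the 2 phases could be alike, with Tsc22d3 means of 10.16 at ZT22 and 10.15 at ZT10. Between the averaged phases, Ddit4 differed by 0.39 ± 0.11 (adjusted p = 0.0863), Errfi1 by 0.16 ± 0.06 (0.258) and Pdk4 by -0.16 ± 0.10 (0.718). Tested for any difference among the times, with no shape assumed, Tsc22d3 passed (adjusted p = 0.000435) and Ddit4 (0.0883), Pdk4 (0.109) and Errfi1 (0.50) did not, against 1.05% of all genes called. A 12 h term added to the daily one was called for none of the 4273 genes (291 at an unadjusted p under 0.05 with limma). For Pdk4 the amplitude of that term was 0.17 ± 0.07 (adjusted p = 0.625).

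Males and females were compared next. In males alone the amplitude of Tsc22d3 was 0.43 ± 0.09 with a peak at ZT16.7 (SE, n = 30, limma, adjusted p = 0.0594, 0.164% of all genes called), and in females alone it was 0.47 ± 0.09 with a peak at ZT15.0 (n = 29, adjusted p = 0.0159, 0.328% called). The female call ended without ZT14 female replicate 2 (0.0530) and without the run 1 to 12 (0.288), 13 to 24 (0.0506) or 25 to 36 (0.341), and in males a call was gained without any 1 of 5 libraries. Ddit4 had 0.39 ± 0.11 in males and 0.29 ± 0.11 in females, Errfi1 0.10 ± 0.06 and 0.17 ± 0.06, and Pdk4 0.19 ± 0.08 and 0.30 ± 0.12, none of them called. Without ZT14 female replicate 4 the female amplitude of Pdk4 was 0.18. The difference in rhythm between the sexes was itself tested and was called for 0 of 4273 genes (limma; 180 at an unadjusted p under 0.05; limma voom on recovered reads scaled by library totals also called 0), with an adjusted p of 0.753 for Tsc22d3, 0.918 for Ddit4, 0.860 for Errfi1 and 0.814 for Pdk4.

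No difference in mean level between the sexes was called for any of the 4. Males minus females came to -0.03 ± 0.09 for Tsc22d3, -0.12 ± 0.11 for Ddit4, 0.02 ± 0.06 for Errfi1 and 0.17 ± 0.10 for Pdk4 on the log2 scale (SE, limma, adjusted p = 0.999 for each), where 0.0234% of all genes were called. Male Pdk4 levels ran from 7.68 to 9.04 around a median of 8.29, and female levels from 6.32 to 8.85 around 8.25.

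Within the runs of serial numbers, the size of the daily change of Tsc22d3 and Ddit4 varied more than its direction. The pairs compared here again take ZT6 and ZT14, the times of the lowest and highest means of Tsc22d3 and Ddit4 in these same libraries. ZT14 exceeded ZT6 in 9 of 10 pairs of the same run and sex for Tsc22d3, with differences from -0.41 to 2.02 and a median of 0.85 on the log2 scale. For Ddit4 it did so in 9 of 10, from -0.02 to 2.24 with a median of 0.63. The single negative pair was that of the females numbered 49 to 60 for both genes. Errfi1 was higher at ZT14 in 7 of 10 pairs and Pdk4 in 4 of 10. The fitted amplitude by run went from 0.27 to 0.72 for Tsc22d3, with peaks from ZT15.3 to ZT17.2, and from 0.10 to 0.83 for Ddit4, with peaks from ZT13.0 to ZT17.5. Both were largest in the run 25 to 36. In the run 49 to 60 the mean level was lower, at 9.90 against 10.23 in the other runs for Tsc22d3 and 7.84 against 8.24 for Ddit4.

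**Figure D2:**
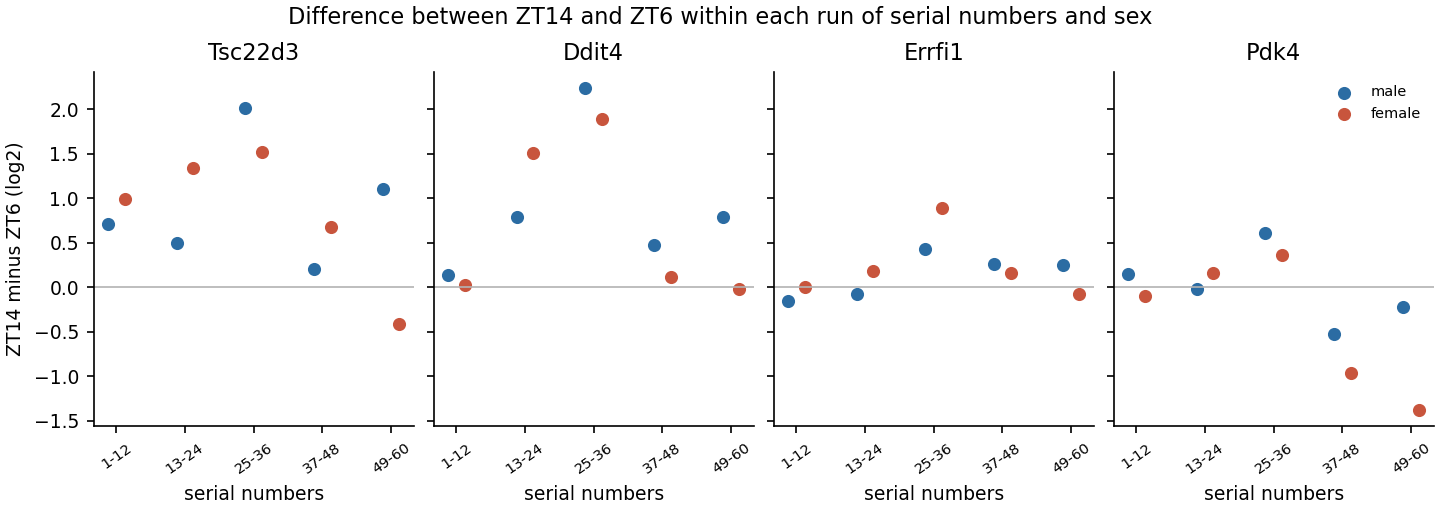
Difference in log2 level between ZT14 and ZT6 (vertical axis) for the single male pair (blue) and female pair (red) in each run of 12 serial numbers (horizontal axis), by gene. Tsc22d3 and Ddit4 are above 0 in 9 of 10 pairs each and highest in the run 25 to 36, while Pdk4 is above 0 in 4 of 10. ZT6 and ZT14 are the times of the lowest and highest means of Tsc22d3 and Ddit4.

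Apart from time, libraries of the same group also differed from each other, and 3 of the 4 genes moved together in that respect. The permutations here and below moved deviations freely over all libraries after means had been removed. They made no allowance for those means, so the permutation p-values are somewhat too small. With the means of the 12 groups and of the runs removed, Tsc22d3 and Ddit4 had a Pearson r of 0.64 and a Spearman rho of 0.60 over 59 libraries (permutation p = 1e-05 for each, the smallest that 100000 resamples can give, adjusted p = 3e-05 over 6 pairs). For Tsc22d3 and Pdk4 they were 0.65 and 0.62 (permutation p = 1e-05 for each, adjusted p = 3e-05), and for Ddit4 and Pdk4 0.47 and 0.43 (permutation p = 0.00026 and 0.00076, adjusted p = 0.00052 and 0.00152). Without the 2 libraries farthest from the median, r was 0.59, 0.58 and 0.41. Errfi1 showed no pooled relation with the others, with r of -0.00 with Tsc22d3, 0.01 with Ddit4 and 0.03 with Pdk4 (permutation p = 0.990, 0.934 and 0.839, adjusted p = 0.990 for each; rho -0.00, -0.02 and -0.00). Tsc22d3 and Pdk4 thus had a positive r between libraries of the same time and sex, while over the 12 group means their r was -0.48, a description over means that share libraries. Within single runs, r ranged from 0.29 to 0.83 for Tsc22d3 with Ddit4, from 0.52 to 0.82 for Tsc22d3 with Pdk4 and from -0.07 to 0.78 for Ddit4 with Pdk4. For Errfi1 the sign differed between runs, with r from -0.75 to 0.58 with Tsc22d3, from -0.49 to 0.54 with Ddit4 and from -0.65 to 0.55 with Pdk4, so the pooled values near 0 cover runs of opposite sign. With run means left in, the relation of Ddit4 and Pdk4 no longer held without the libraries 49 to 60 (r = 0.24, rho = 0.22, permutation p = 0.0958 and 0.137, adjusted p = 0.192 and 0.274).

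**Figure D3:**
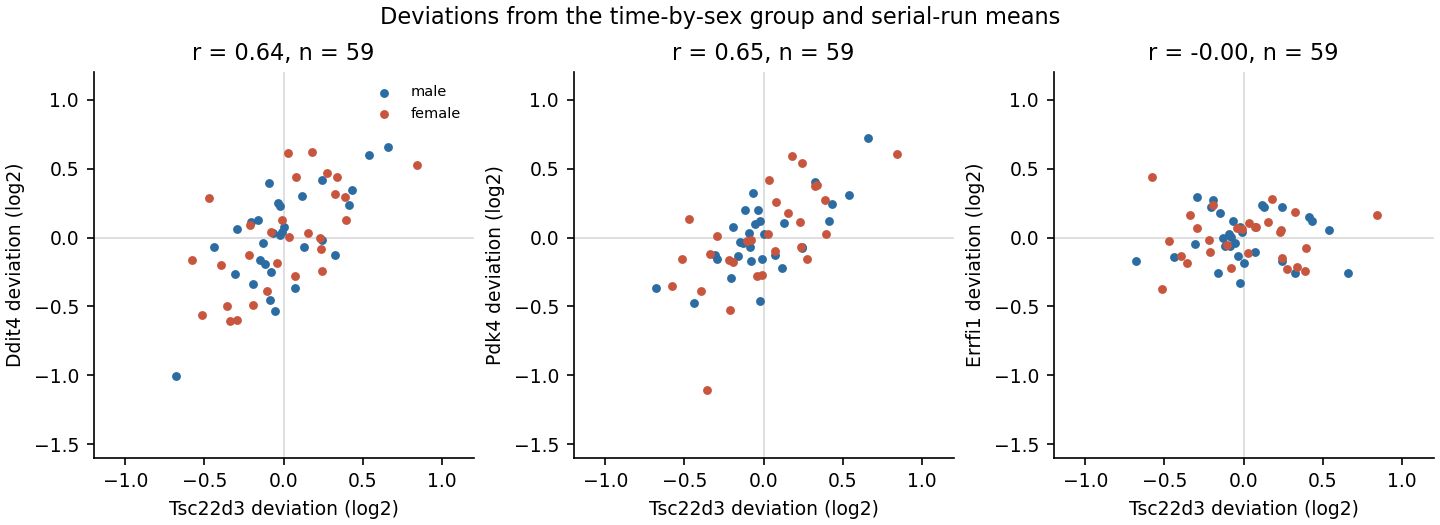
Deviation of each library from its group and run means on the log2 scale, for Tsc22d3 (horizontal axes) against Ddit4, Pdk4 and Errfi1 (vertical axes), with males in blue and females in red (n = 59). Libraries high in Tsc22d3 tend to be high in Ddit4 (r = 0.64) and Pdk4 (r = 0.65), while the pooled r with Errfi1 was -0.00 and its sign differed between runs.

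The noncoding share and cell type markers moved with these deviations. The deviations of Tsc22d3 had an r of 0.63 with the noncoding share (rho 0.62, permutation p = 1e-05 and 2e-05, 28 relations in all, adjusted p = 4.67e-05 and 0.000187; 0.62 without the 2 farthest libraries). For Ddit4 that r was 0.33 (rho 0.25, permutation p = 0.00974 and 0.0531, adjusted p = 0.0160 and 0.0805; 0.31 without 2), and for Pdk4 0.51 (rho 0.42, permutation p = 4e-05 and 0.00137, adjusted p = 0.000124 and 0.00349; 0.48 without 2). For Errfi1 it was -0.08 (rho -0.02, permutation p = 0.538 and 0.864, adjusted p = 0.558 and 0.896). The summed GABAergic markers had an r of -0.48 with Tsc22d3, -0.54 with Ddit4 and -0.47 with Pdk4 (rho -0.48, -0.48 and -0.38; permutation p = 0.00013, 1e-05 and 0.00015 for r, adjusted p = 0.000303, 4.67e-05 and 0.000323; -0.45, -0.54 and -0.36 without the 2 farthest libraries). With the noncoding share removed as well, r was 0.59 for Tsc22d3 with Ddit4, 0.50 for Tsc22d3 with Pdk4 and 0.38 for Ddit4 with Pdk4. With the first principal component of all genes' deviations removed instead, which held 26.5% of their variance, r was 0.33, 0.43 and 0.16. Among the other 4272 tested genes, Pdk4 ranked 94 by r with Tsc22d3, and Ddit4 ranked lower than Pdk4 there. Tsc22d3 ranked 24 by r with Pdk4 and 42 by r with Ddit4. The pair of Ddit4 and Pdk4 ranked much lower, with Ddit4 at 387 by r with Pdk4 and Pdk4 at 532 by r with Ddit4. Many other genes thus shared these deviations, and the relations were not particular to these genes.

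Deviations of Pdk4 and Tsc22d3 also correlated with the astrocyte and microglia markers, and those of Ddit4 with the microglia markers. Marker sums are the log2 of the summed scaled reads, so the genes with most reads weigh most. Among the 4 tested astrocyte markers (of 10 listed) these were Slc1a3 and Gja1, with mean log2 levels of 13.1 and 12.1. Fgfr3 and Gfap stood at 10.4 and 9.51. The astrocyte sum had time means from 13.74 at ZT6 and 13.75 at ZT14 to 14.04 at ZT2, low at the times when Pdk4 was low. The r of Pdk4 with that sum was 0.76 over the 12 group means and 0.62 over the deviations of the 59 libraries (rho 0.46, permutation p = 1e-05 and 0.00022, adjusted p = 4.67e-05 and 0.000684 over 28 relations; 0.48 without the 2 farthest). The sum of the 2 tested microglia markers (P2ry12 and Tmem119, of 8 listed) ran from 9.96 at ZT14 to 10.26 at ZT2, and its r with Pdk4 was 0.76 over group means and 0.53 over deviations (rho 0.38, permutation p = 3e-05 and 0.00289, adjusted p = 0.000105 and 0.00674; 0.50 without 2). With the astrocyte sum as a covariate, the amplitude of Pdk4 was 0.18 with a peak at ZT2.19, against 0.23 at ZT1.12. The deviations of Tsc22d3 had an r of 0.39 with the astrocyte sum (rho 0.34, permutation p = 0.00228 and 0.00773, adjusted p = 0.00456 and 0.0149; 0.35 without 2) and 0.50 with the microglia sum (rho 0.47, permutation p = 3e-05 and 0.0002, adjusted p = 0.000105 and 0.000684; 0.47 without 2). Those of Ddit4 had an r of 0.25 with the astrocyte sum (rho 0.17, permutation p = 0.0551 and 0.206, adjusted p = 0.0813 and 0.251; 0.23 without 2) and 0.39 with the microglia sum (rho 0.34, permutation p = 0.00268 and 0.00799, adjusted p = 0.0050 and 0.0149; 0.37 without 2). For Errfi1 the r was 0.24 with the astrocyte sum (rho 0.25, adjusted permutation p = 0.0973 and 0.0805) and 0.20 with the microglia sum (rho 0.22, adjusted permutation p = 0.157 and 0.128). The amplitudes of Tsc22d3, Ddit4 and Errfi1 were 0.44, 0.34 and 0.13 with the astrocyte sum as a covariate.

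The genes most alike over the 12 group means were then found for each member, as a description. For Tsc22d3 they were Junb, a subunit of the AP-1 transcription factor (r = 0.96), Zfp189 (0.91), Ddit4 (0.90), Ier5l (0.90) and Rilpl2 (0.89). For Ddit4 they were Tsc22d3 (0.90), Adcy6, which encodes an adenylyl cyclase (0.89), Hes6 (0.88), Junb (0.84) and Ier5l (0.83). For Errfi1 they were Mcmbp (0.89), Bag5 (0.87), Nufip2 (0.86), Acin1 (0.84) and Sox13 (0.84). For Pdk4 they were Slc7a11, the cystine and glutamate exchanger (0.91), Mpeg1, a gene of macrophages and microglia (0.91), Wwtr1, which encodes the Hippo pathway coactivator TAZ (0.91), Csrp1 (0.87) and Tmem123 (0.86). Over the 6 time means alone, Junb and Zfp189 remained among the 5 for Tsc22d3, Adcy6 for Ddit4, Bag5 and Acin1 for Errfi1 and Slc7a11 for Pdk4.

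Other genes that glucocorticoids induce gave the 4 genes their setting. The list of 44 such genes had 13 that were tested, and 4 of the 13 were called, all with a peak in the dark phase, against 1.90% of all genes called and 1.40% called with such a peak. The called genes were Tsc22d3, Ddit4, Per1 and Slc2a1. The list holds the 4 genes and was also chosen with earlier results of these data known, so its count is a description. Per1, a repressor of the circadian clock with a known glucocorticoid response element, had an amplitude of 0.45 ± 0.05 and a peak at ZT14.9 (SE, limma, adjusted p = 9.74e-08). Slc2a1, the glucose transporter GLUT1 of the blood-brain barrier, had 0.22 ± 0.04 and a peak at ZT14.7 (adjusted p = 0.00606), and its call ended without the run 1 to 12 (0.0792) or 25 to 36 (0.0515). Among those not called were Bcl6, a transcriptional repressor (0.22 ± 0.08, ZT16.0), Lpl, lipoprotein lipase (0.27 ± 0.12, ZT4.72), Nedd9 (0.15 ± 0.07, ZT17.3), a scaffold of focal adhesions, and Rhob, a small GTPase (0.07 ± 0.02, ZT10.9), with adjusted p from 0.297 to 0.646 (limma). Errfi1, Pdk4 and Txnip (0.08 ± 0.08, ZT4.30) were not called either, and the flattest genes of the 13 are not named here. The median amplitude of the 13 genes was 0.22 against 0.076 for all genes, and 8 of the 13 fitted peaks lay in the dark phase, against 49.4% of all genes. Over the 9 genes other than Tsc22d3, Ddit4, Errfi1 and Pdk4, the median amplitude was 0.15, 2 were called and 5 had a fitted peak in the dark phase.

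**Figure D4:**
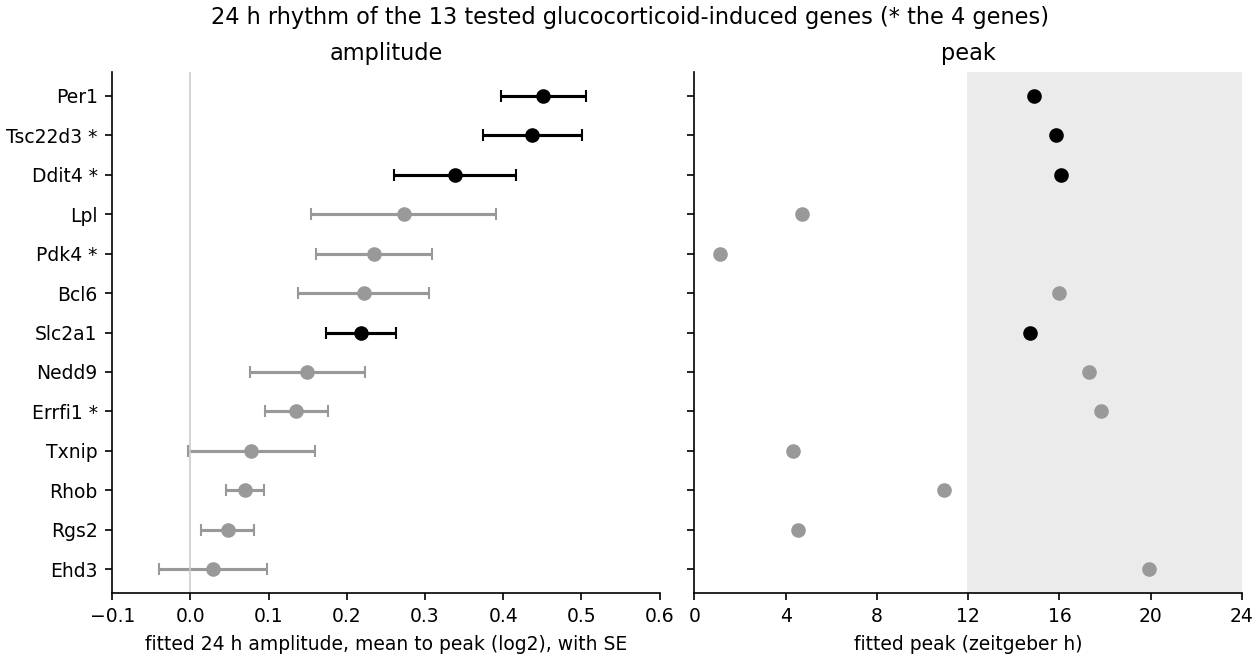
Fitted 24 h amplitude with its SE (left, log2 scale, mean to peak) and fitted peak in zeitgeber hours (right, ZT12 to ZT24 shaded) for the 13 tested glucocorticoid-induced genes, ordered by amplitude. Black marks the 4 called genes, Per1, Tsc22d3, Ddit4 and Slc2a1, whose peaks lie between ZT14.7 and ZT16.1, grey marks the others, and stars mark Tsc22d3, Ddit4, Errfi1 and Pdk4.

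None of the tested genes of the machinery that carries the hormone signal was called. Of 24 listed genes 11 were tested, where 1.90% of all genes were called. At an unadjusted p under 0.05 (limma) there were 3 of the 11, and 486 of all 4273 genes. Nr3c1, the receptor itself, had an amplitude of 0.06 ± 0.03 (SE, adjusted p = 0.788). Crh, the peptide that starts the hypothalamic stress response and that cortical interneurons also make, had the largest amplitude of the 11 at 0.44 ± 0.11 with a fitted peak at ZT8.58 (adjusted p = 0.0639), and it was called without any 1 of 9 libraries. Ncoa3, a nuclear receptor coactivator, had 0.16 ± 0.06, and Stip1, a cochaperone of the receptor, 0.12 ± 0.05. The median amplitude of this list was 0.06.

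The pathways that the 4 proteins act on were listed too. In the TSC22 family, 3 of 4 genes were tested, and Tsc22d2 (0.11 ± 0.03, ZT16.9, limma, adjusted p = 0.151) and Tsc22d4 (0.07 ± 0.06, ZT21.6, adjusted p = 0.964) were not called. Of 38 mTORC1 genes 19 were tested and 2 called, Ddit4 and Flcn, where 1.90% of all genes were called. Flcn, which encodes folliculin, a GTPase activator for the Rag proteins at the lysosome, had 0.18 ± 0.04 with a peak at ZT15.0 (adjusted p = 0.0258), and its call ended without any 1 of 4 runs, those numbered 1 to 12 (0.136), 13 to 24 (0.230), 25 to 36 (0.153) and 49 to 60 (0.0756). Not called were Rraga, a Rag GTPase (0.10 ± 0.03, ZT7.26), and Tbc1d7, the third subunit of the TSC complex (0.18 ± 0.06, ZT6.87), with an adjusted p of 0.182 for both. The median amplitude of the mTORC1 list was 0.10.

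Of 24 genes of the ErbB receptor pathway 10 were tested and 1 was called, beside 1.90% of all genes. Spry4, an inhibitor of receptor tyrosine kinase signalling, had 0.37 ± 0.07 with a peak at ZT18.7 (SE, limma, adjusted p = 0.00158), and its call ended without the run 25 to 36 (0.0794). That peak lay within 1 h of the fitted peak of Errfi1, but Errfi1 was not called and its peak had an SE of 1.15 h. Nrg3, an ErbB4 ligand, had 0.11 ± 0.03 (ZT9.36, adjusted p = 0.168). Around Pdk4, none of the 6 tested genes of pyruvate dehydrogenase and its kinases was called (1 at an unadjusted p under 0.05, limma), beside the same 1.90%. Pdhb, a subunit of the enzyme, had 0.07 ± 0.03 and Pdk2 0.13 ± 0.07. The 2 tested genes of the list of lipid oxidation and PPAR targets, Cpt1a and Cpt1c, had 0.07 ± 0.08 and 0.05 ± 0.04. Among FoxO factors and targets, 3 genes were tested and none called (1 at an unadjusted p under 0.05, limma), beside 1.90% of all genes. Irs2, an insulin receptor substrate, had 0.30 ± 0.10 (ZT19.2), Foxo1 0.15 ± 0.07 and Txnip 0.08 ± 0.08. The clock genes Per2 and Per3, beside Per1, were called at 0.52 ± 0.07 (ZT17.6, adjusted p = 9.88e-06) and 0.23 ± 0.05 (ZT17.8, adjusted p = 0.00841). The call of Per3 ended without the run 1 to 12 (0.0771), 25 to 36 (0.0706) or 49 to 60 (0.187).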

How the data were processed

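RNA was extracted with a Qiagen micro kit and made into stranded total RNA libraries with a Takara kit, per the labels' protocols. The submitters' processing notes name FastQC, HTSeq, DESeq2 and the build GRCm38. The aligner, the annotation release and the strand setting are not given in the sources used here. What the authors deposited is on the log2 scale, as the values themselves show: 2 to the power of each, minus 1, is a whole multiple of 1 step per library (largest distance from a whole number 0.000206), so each value is the log2 of a read count scaled per library, plus 1. Dividing by the step recovered whole reads for 4484 genes, which were used for depth, the filter and alternatives.

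Groups came from the titles, which give time, sex, an animal number that repeats within groups and a serial number. Replicate numbers are the runs of 12 serial numbers. Tests covered the 4273 genes that reached 10 recovered reads in 4 or more libraries. limma 3.58.1 in R 4.3.3 (trend and robust) was run on the log2 values of all of these, with Benjamini-Hochberg adjustment over the 4273 and a threshold of 0.05. A rhythm was tested by cosine and sine terms together, beside sex. Dark minus light weighted times equally. Correlations used deviations from group and run means with 100000 permutations, which made no allowance for the means removed. The fit was also run on simulated data with noise drawn independently for each gene and library. The deviations in these data were shared between genes, so that run does not give the rate of false calls here. Symbols and exons came from GENCODE M21, and none of the 4 genes shares exons with another gene there. Named genes were the 4 genes, up to 6 other glucocorticoid-induced genes and up to 3 of each other list by smallest rhythm p, and the 5 properly named genes of highest r per gene; Nr3c1 and the marker genes were added. The genes, lists and rules were chosen with earlier results of these data known. The alternatives were voom with 2 scalings, quantile normalization, other filters, no trend, sex left out, a replicate block, principal components, and leaving out each library or run. Some listed marker genes, and the marker sums that hold them, are not reported here, so the marker relations printed are not all of those computed, and some left out were larger over group means than those printed for Tsc22d3 and Ddit4.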

Additional observations from a re-analysis of the deposited data

How the results depend on the processing

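For the 24 h rhythm, the fitted peak stayed between ZT15.5 and ZT16.1 for Tsc22d3 and between ZT15.6 and ZT16.8 for Ddit4 under the alternatives tried. The Ddit4 call ended with voom on reads scaled by library totals (amplitude 0.33, adjusted p = 0.657, limma voom; 3 genes called in all against 81), and without the serial numbers 1 to 12 (0.38), 13 to 24 (0.33) or 25 to 36 (0.22); the cause was not tested. Under library totals the calls of Per1 (adjusted p = 0.238), Per2 (0.146), Per3, Slc2a1, Flcn, Spry4, Zfp189 (0.0696) and Ier5l (0.0629) and the female call of Tsc22d3 (0.525) ended too, and that of Tsc22d3 over both sexes held (0.000654). With the first 2 components of the deviations as covariates, which leaves amplitudes as they were and narrows the residual spread, 359 genes were called, among them Errfi1 (0.14, adjusted p = 0.0469) and Pdk4 (0.23, adjusted p = 0.0112). Those components were drawn from the deviations of these same libraries. The p-values of this setting are therefore too small, and its added calls are no evidence of a rhythm in Errfi1 or Pdk4. Without the libraries 49 to 60, 50 genes were called, Tsc22d3 (0.48) and Ddit4 (0.36, adjusted p = 0.0489) among them. Leaving out 1 library at a time gave amplitudes of 0.30 to 0.37 for Ddit4 and 0.18 to 0.25 for Pdk4. The Tsc22d3 call in males was gained under voom with median-of-ratios scaling (0.0371), the stricter filter (0.0470) and the replicate block (0.0122). The labels do not say what a shared replicate number marks. Deviations of libraries with the same number correlated with a mean r of 0.11 (from -0.49), against -0.03 for other numbers in other groups, and 26 of 59 libraries correlated best with their own number. With the number as a replicate block the 24 h rhythm had amplitudes of 0.44 for Tsc22d3 and 0.34 for Ddit4, and calls were gained for Ddit4 in dark minus light (0.40, adjusted p = 0.0243) and, over any time difference, for Ddit4 (0.0280) and Pdk4 (0.0441). With fewest reads, 34 for Ddit4, counting error limits single libraries most for Ddit4 and Pdk4.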
